A study of Arabidopsis thaliana with 4 samples.

Results

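The UGT glycosyltransferase family was described in OsRR6ox and wild type seedlings of Arabidopsis thaliana. Family members were taken by name. A probe set belonged to the family if its only annotated gene had a symbol made of UGT and a digit, with a leading AT ignored. The rule found 47 genes, each with 1 probe set, among 13356 genes that have a probe set of their own and 22746 probe sets tested. They fall into 11 UGT group numbers, with 9 genes in group 71, 8 in group 76, 7 in group 73, 5 each in groups 84 and 85, 4 in group 72, 3 each in groups 74 and 78, and 1 each in groups 80, 87 and 88.

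RNA came from whole seedlings of accession Col-0 aged 10 days, grown on half-strength medium in long days without further treatment. The 2 OsRR6ox samples carry a transgene that over-expresses OsRR6, a rice type-A response regulator. The 2 wild type samples carry no transgene. The labels used here do not give the promoter of the transgene, and the design text speaks of an overexpression line in the singular. Each sample was hybridised to 1 Affymetrix Arabidopsis array, and the deposited values are on a log2 scale, so a difference of 1 is a 2-fold change.

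UGT enzymes move a sugar from a nucleotide sugar, most often UDP-glucose, onto small molecules. Their acceptors in Arabidopsis include cytokinins, auxin, salicylic acid, abscisic acid, flavonoids, hydroxycinnamates, monolignols and foreign compounds, and the sugar usually makes the acceptor more soluble and inactive or ready for storage. The group number and letter reflect sequence relatedness, and closely related members often lie next to each other in the genome. Type-A response regulators dampen cytokinin signalling, and the cytokinin glucosyltransferases act on the hormone itself.

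Across all 22746 probe sets, 296 or 1.3% passed the test of OsRR6ox against wild type (limma, Benjamini-Hochberg adjusted p under 0.05), 185 of them higher (0.813%) and 111 lower (0.488%). Array medians lay between 6.71 and 6.81. Over probe sets, the arrays correlated at Pearson's r of 0.992 for the OsRR6ox pair, 0.976 to 0.980 for pairs of different genotype and 0.989 for the wild type pair. Whole-seedling markers were present, with the photosynthetic genes RCA, LHCB4.1 and LHCB4.2 at 11.13 or more on every array and the root gene PYK10 at 12.71 or more. The root markers moved in both directions. Of 5 measured, EXPA7 rose by 1.39 and UPB1 fell by 1.34. Without a call, EXPA18, PYK10 and NAI1 differed by 1.11, -0.21 and -0.19. The summed linear level of the list, most of it from PYK10, was 7733 and 8445 in OsRR6ox and 9059 and 9307 in wild type. The 3 shoot markers summed to 25884 and 29890 in OsRR6ox and to 25005 and 28774 in wild type, and 0 of them passed (1 at an unadjusted p under 0.05, limma). These sums hide moves in both directions. LHCB4.2 was 2.30-fold higher in OsRR6ox (limma adjusted p = 0.0705), while LHCB4.1 and RCA differed by 0.17 and -0.38 on the log2 scale. Arrays of the genotypes did not overlap for any of the 3 shoot markers. The 2 seed markers, OLEO3 and LEA4-5, summed to 72.5 and 57.2 in OsRR6ox and 98.5 and 83.4 in wild type without a call (1 at an unadjusted p under 0.05, limma), and the 2 flower markers, AMS and SPL, lay at array background on every array. In 3 of 6 sets of RNA controls the 3′ minus 5′ probe set difference was smaller on both OsRR6ox arrays, and in the 2 GAPDH sets, where it was negative on all arrays, it was further below 0 on both. The part of tissue proportions and of RNA quality in the UGT differences was not tested. In whole seedlings, fewer cells of a type and less RNA per cell cannot be told apart.

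Of the 47 UGT genes 3 passed over all probe sets. UGT71C3 rose, and UGT84A1 and UGT87A2 fell. Higher calls were 1 of 47 against a background of 0.813%, and lower calls were 2 of 47 against 0.488%. At an unadjusted p under 0.05, limma gave 13 of 47 (27.7%), where all probe sets gave 15%. Of the 13, 5 were higher and 8 lower, against 6.75% and 8.23% of all probe sets. A difference of at least 2-fold was measured for 5 members, 2 higher and 3 lower, where 3.1% of all probe sets differed that far, 1.67% higher and 1.43% lower. These 5 are UGT71C3 and UGT74B1 among the higher, and UGT84A1, UGT87A2 and UGT84A3 among the lower.

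In none of the refits with 1 array left out did all the called UGT genes pass. Leaving out replicate 1 or replicate 2 of OsRR6ox also lowered the number of calls over all probe sets. Each refit leaves 1 array in a genotype, so lost precision cannot be told from dependence on a particular array. In each of these refits the differences of UGT71C3, UGT84A1 and UGT87A2 kept their sign, with ranges of 0.93 to 1.09, -1.53 to -1.19 and -1.51 to -1.16.

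**Figure D1:**
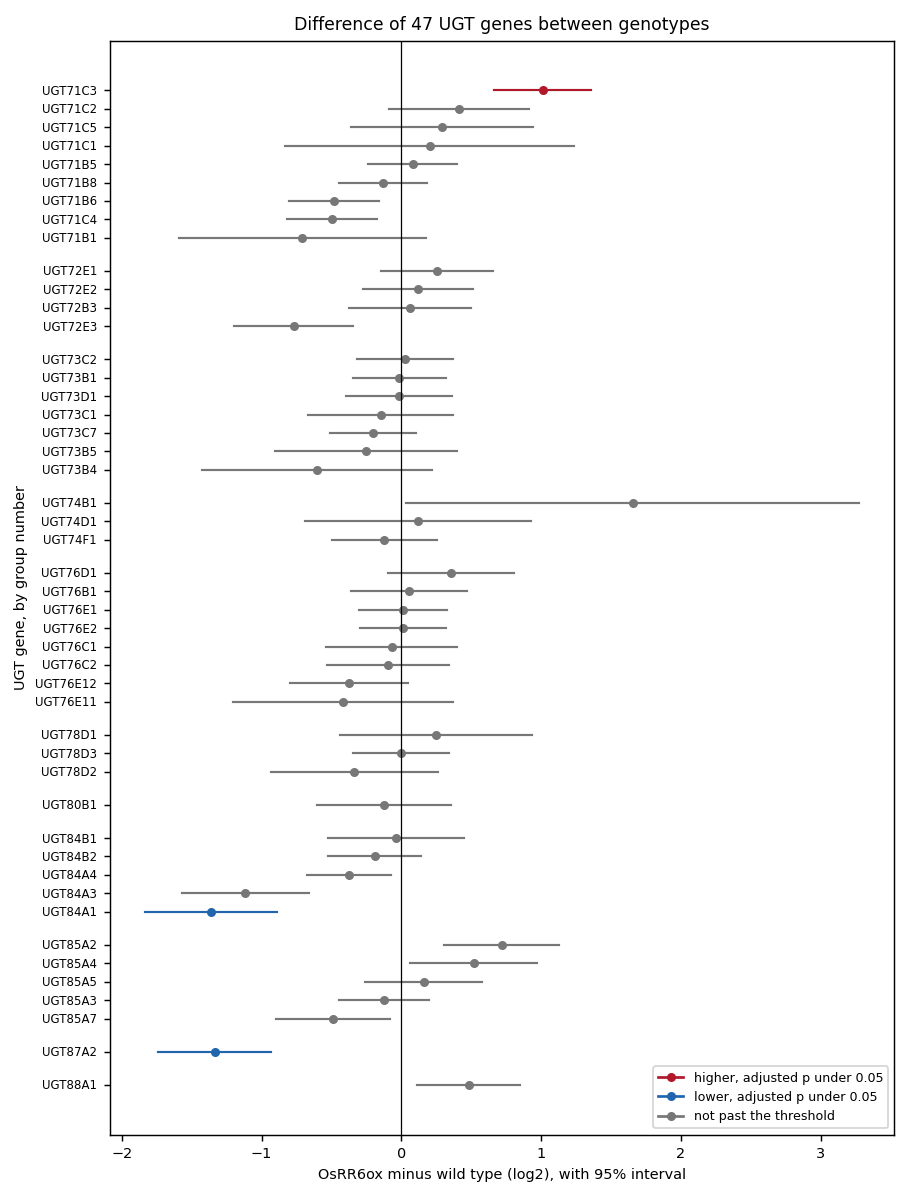
Difference between OsRR6ox and wild type (log2, horizontal axis) for each of the 47 UGT genes, listed by UGT group number. Points are differences of means over 2 arrays each, lines are the 95% intervals of the limma fit, and colour marks the 3 genes past the threshold. The median difference is -0.04, and the median size, whatever the sign, is 0.25, against 0.16 for all probe sets. UGT84A1 at -1.36 and UGT74B1 at 1.65 are the ends of the range.

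As a list the family was centred where all probe sets were. The median difference was -0.04 over the 47 members and -0.04 over all probe sets tested, and 27 of 47 members (57.4%) had a lower mean in OsRR6ox, against 57.7% of all probe sets. The median size of the difference, whatever its sign, was 0.25 for the members and 0.16 for all probe sets. Arrays of the genotypes did not overlap for 23 of 47 members, or 48.9%, and for 46.1% of all probe sets. Of these 23, both OsRR6ox arrays were higher for 8 (18.1% of all probe sets) and lower for 15 (28% of all probe sets). On all 4 arrays 7 members (14.9%) lay at array background, the lowest 25% of an array's probe sets, where 21.8% of all probe sets did. A further 37 members lay above it on every array.

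Replicates of the same genotype differed by a median of 0.17 between the OsRR6ox arrays and 0.24 between the wild type arrays for the members, against 0.15 and 0.18 for all probe sets. Over all 22746 probe sets, gaps of over 0.5 between replicates were met in 1655 in OsRR6ox and in 2558 in wild type. Among the 47 members they were met in 4 in OsRR6ox and in 8 in wild type. The OsRR6ox gaps were those of UGT71B1, UGT78D1, UGT74B1 and UGT76E11, at 0.94, 0.78, 0.69 and 0.67. The wild type gaps included 1.89 for UGT74B1, 1.25 for UGT71C1, 0.97 for UGT73B4 and 0.90 for UGT74D1. The differences of these genes thus carry wide errors, with standard errors of 0.64 for UGT74B1 and 0.41 for UGT71C1, where UGT84A4 has 0.12.

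Group 84 holds glucosyltransferases of carboxylic acids, and all 5 measured members had a lower mean in OsRR6ox, as did 57.7% of all probe sets. UGT84A1, which joins glucose to hydroxycinnamates such as sinapate, read 4.77 and 4.48 in OsRR6ox, against 5.81 and 6.16 in wild type. Both OsRR6ox values lie far below both wild type values and only 0.32 and 0.07 above the background limit of their arrays. The gene fell by 1.36 on the log2 scale, or 2.57-fold lower in OsRR6ox (95% interval of the difference -1.83 to -0.89, limma adjusted p = 0.0478). UGT84A3, which also acts on hydroxycinnamates, read 7.23 and 6.81 in OsRR6ox, against 8.08 and 8.19 in wild type. The genotypes did not overlap, yet the difference of -1.12 (95% interval -1.57 to -0.66) missed the threshold over all probe sets (limma adjusted p = 0.0699). With each array centred on its median it passed, at adjusted p = 0.0426, and over all alternatives its adjusted p ranged from 0.0426 to 0.285.

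UGT84A4, the other hydroxycinnamate member of the group measured here, read 5.14 and 5.11 in OsRR6ox and 5.52 and 5.49 in wild type. Its replicates lay within 0.03 of each other in each genotype, and the difference of -0.38 was smaller than those of its relatives and did not pass (adjusted p = 0.25). The 3 measured UGT84A genes all had both OsRR6ox arrays below both wild type arrays, with 1 past the threshold. Over all probe sets 28% had both OsRR6ox arrays lower and 0.488% were called lower. The 3 genes are adjacent close relatives, and their probe sets may share some signal. UGT84B1, which glucosylates auxin, and UGT84B2 lay at array background on all 4 arrays, so their differences of -0.04 and -0.19 carry little information on these genes.

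UGT87A2, a member known to act on flowering time through the repressor FLC, read 9.29 and 8.95 in OsRR6ox, against 10.46 and 10.46 in wild type. It is far above background in both genotypes, and the lowest wild type array stood 1.16 above the highest OsRR6ox array. The gene fell by 1.34 on the log2 scale and was 2.52-fold lower in OsRR6ox (95% interval of the difference -1.74 to -0.93, limma adjusted p = 0.0370). It had the smallest p of the 47 members. UGT88A1, the only member of group 88, read 10.11 and 10.10 in OsRR6ox and 9.49 and 9.76 in wild type. Both OsRR6ox values were higher, and the difference of 0.48 (95% interval 0.11 to 0.85) did not pass, with a limma adjusted p of 0.233.

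**Figure D2:**
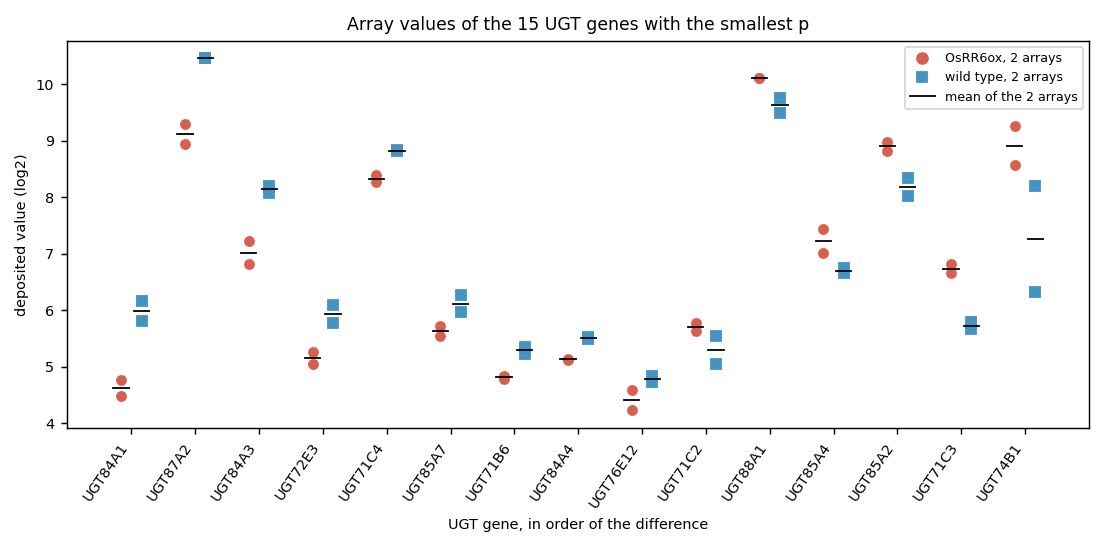
Deposited log2 value (vertical axis) on each array for the 3 genes past the threshold and the 12 others with the smallest p, in order of their difference. Circles are OsRR6ox arrays, squares wild type arrays, and bars the mean of each pair. In all 15 genes the pairs do not overlap, which the choice by p from these same values favours (46.1% of all probe sets do not overlap). The wild type arrays of UGT74B1, at 8.20 and 6.32, stand furthest apart.

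Group 71 was split. UGT71C3, which glucosylates methyl salicylate, read 6.82 and 6.65 in OsRR6ox, against 5.79 and 5.66 in wild type. Both OsRR6ox arrays were higher by at least 0.86, and the gene rose by 1.01, or 2.01-fold (95% interval of the difference 0.66 to 1.36, limma adjusted p = 0.0475). UGT71C4 read 8.26 and 8.40 in OsRR6ox, against 8.84 and 8.81 in wild type, so both OsRR6ox arrays were lower. Its difference of -0.50 (95% interval -0.82 to -0.18) did not pass (adjusted p = 0.168). UGT71C5, which glucosylates abscisic acid, differed by 0.29 with overlapping arrays, 8.00 and 7.78 in OsRR6ox and 7.95 and 7.25 in wild type.

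The other group 71 members also took both signs. UGT71C2 read 5.64 and 5.78 in OsRR6ox and 5.05 and 5.54 in wild type, a difference of 0.41 that did not pass (adjusted p = 0.416). UGT71C1 read 6.77 and 6.77 in OsRR6ox, inside the wild type pair of 7.20 and 5.94. UGT71B6, an enzyme of abscisic acid glucosylation, read 4.83 and 4.78 in OsRR6ox and 5.35 and 5.23 in wild type. Its difference of -0.48 (95% interval -0.80 to -0.16) did not pass (adjusted p = 0.180). UGT71B8, its close homologue, lay at array background throughout, and UGT71B5 differed by 0.08. UGT71B1 read 7.72 and 6.78 in OsRR6ox and 8.19 and 7.73 in wild type, so the genotypes were separated by 0.01 only. Over the group, 4 of 9 members had a lower mean in OsRR6ox, 1 rose and 0 fell. Of all probe sets, 57.7% had a lower mean, 0.813% rose and 0.488% fell.

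Group 85 was split as well, with 4 of 5 members not overlapping between genotypes and 0 past the threshold (3 at an unadjusted p under 0.05, limma). Over all probe sets 46.1% did not overlap, 1.3% passed and 15% had such a p. UGT85A2 read 8.81 and 8.98 in OsRR6ox, against 8.34 and 8.03 in wild type, a difference of 0.72 (95% interval 0.30 to 1.13, adjusted p = 0.137). UGT85A4 read 7.43 and 7.01 in OsRR6ox and 6.66 and 6.74 in wild type, higher by 0.52 (adjusted p = 0.285). UGT85A7 went the other way, with 5.71 and 5.54 in OsRR6ox and 6.27 and 5.96 in wild type, a difference of -0.49 (95% interval -0.90 to -0.08, adjusted p = 0.265). UGT85A5 and UGT85A3 differed by 0.16 and -0.12.

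In group 72, whose E members glucosylate monolignols, the precursors of lignin, 1 of 3 such genes stood apart. UGT72E3 read 5.05 and 5.26 in OsRR6ox, against 6.09 and 5.77 in wild type. Both OsRR6ox arrays were lower by at least 0.51, but the difference of -0.77 (95% interval -1.2 to -0.34) did not pass (adjusted p = 0.128). UGT72E1 and UGT72E2 differed by 0.26 and 0.12, UGT72E1 with 9.59 and 9.28 in OsRR6ox against 9.12 and 9.24 in wild type, and UGT72E2 with overlapping arrays. UGT72B3, of the B branch, differed by 0.06 with overlapping arrays. Group 73 had 0 calls among 7 members (0 at an unadjusted p under 0.05, limma), where 1.3% and 15% of all probe sets did. A lower mean in OsRR6ox was found for 6 of the 7, some at array background, and for 57.7% of all probe sets. UGT73B4, which acts on transformation products of the explosive TNT, read 4.96 and 4.93 in OsRR6ox and 6.03 and 5.07 in wild type, so its difference of -0.60 comes mostly from wild type replicate 1. UGT73B5, needed for resistance to Pseudomonas syringae, differed by -0.25 with overlapping arrays. UGT73B1 differed by -0.02, with a 95% interval of -0.35 to 0.32. UGT73C1 and UGT73C2 lay at array background on all arrays, UGT73C7 on both OsRR6ox arrays and UGT73D1 on 1 array of each genotype.

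UGT74B1, which adds the sugar in glucosinolate synthesis, had the highest difference of the family and a low precision. It read 9.26 and 8.57 in OsRR6ox, against 8.20 and 6.32 in wild type. Both OsRR6ox arrays were higher than both wild type arrays, and wild type replicate 2 was far below replicate 1. The difference of 1.65 had a 95% interval of 0.04 to 3.27 and did not pass (limma adjusted p = 0.324). Without wild type replicate 1 it was 2.60 (adjusted p = 0.0363), and without wild type replicate 2 it was 0.71. In the same group UGT74D1, which acts on oxidised auxin, read 8.51 and 8.22 in OsRR6ox, inside the wild type pair of 7.80 and 8.70. UGT74F1, which glucosylates salicylic acid, differed by -0.12 with overlapping arrays.

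In group 76 the cytokinin enzymes overlapped between genotypes. UGT76C2 read 7.91 and 7.58 in OsRR6ox and 7.72 and 7.96 in wild type, and UGT76C1 7.23 and 6.81 in OsRR6ox and 7.0 and 7.18 in wild type. Both N-glucosylate cytokinins, both lie well above background, and their 95% intervals were -0.54 to 0.34 and -0.54 to 0.40, which leave room for changes of up to that size. UGT73C1, an O-glucosyltransferase of cytokinins, was at background and tells nothing of the difference. UGT76B1, which glucosylates salicylic acid, isoleucic acid and N-hydroxypipecolic acid, read 7.59 and 7.54 in OsRR6ox, within the wild type pair of 7.69 and 7.33. UGT76D1 read 5.17 and 5.12 in OsRR6ox and 5.0 and 4.58 in wild type, a difference of 0.36. UGT76E11 and UGT76E12 differed by -0.42 and -0.37, and UGT76E1 and UGT76E2 by 0.01 each. UGT76E1 was at background on all arrays, and UGT76E12 on 1 OsRR6ox array. Among the 8 members 0 passed (0 at an unadjusted p under 0.05, limma), where 1.3% of all probe sets passed and 15% had such a p.

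Group 78 holds the flavonoid 3-O-glycosyltransferases, and 0 of 3 members passed (0 at an unadjusted p under 0.05, limma), with overlapping arrays in each. Over all probe sets 1.3% passed and 15% had such a p. UGT78D1, the flavonol rhamnosyltransferase, read 8.09 and 7.31 in OsRR6ox and 7.47 and 7.44 in wild type. UGT78D2, the glucosyltransferase, read 8.41 and 8.09 in OsRR6ox and 8.30 and 8.87 in wild type, and its difference of -0.34 had an interval of -0.94 to 0.26. UGT78D3, the arabinosyltransferase, was at background. UGT80B1, a sterol glucosyltransferase of another branch of the enzyme class, differed by -0.12 with overlapping arrays.

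Neighbourhood in the genome was not used to choose the members. In the order of protein-coding genes of the TAIR10.1 annotation, 31 of the 47 members lie in 13 runs, allowing up to 5 genes between neighbours. Within a run the differences spanned a median of 0.21. The widest spans were 1.51 in the run AT1G07240 to AT1G07260, which holds UGT71C5, UGT71C4 and UGT71C3 with no gene between them, and 1.2 in the run AT1G22340 to AT1G22380, which holds UGT85A7, UGT85A2, UGT85A5 and UGT85A3. As deposited, adjacent genes in each of these runs had 95% intervals on opposite sides of 0, UGT71C4 against UGT71C3 and UGT85A7 against UGT85A2, although only UGT71C3 passed over all probe sets. In the run AT4G15480 to AT4G15500 the 3 UGT84A genes were all lower and spanned 0.99. Probe sets of such close relatives may share some signal, which was not tested.

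**Figure D3:**
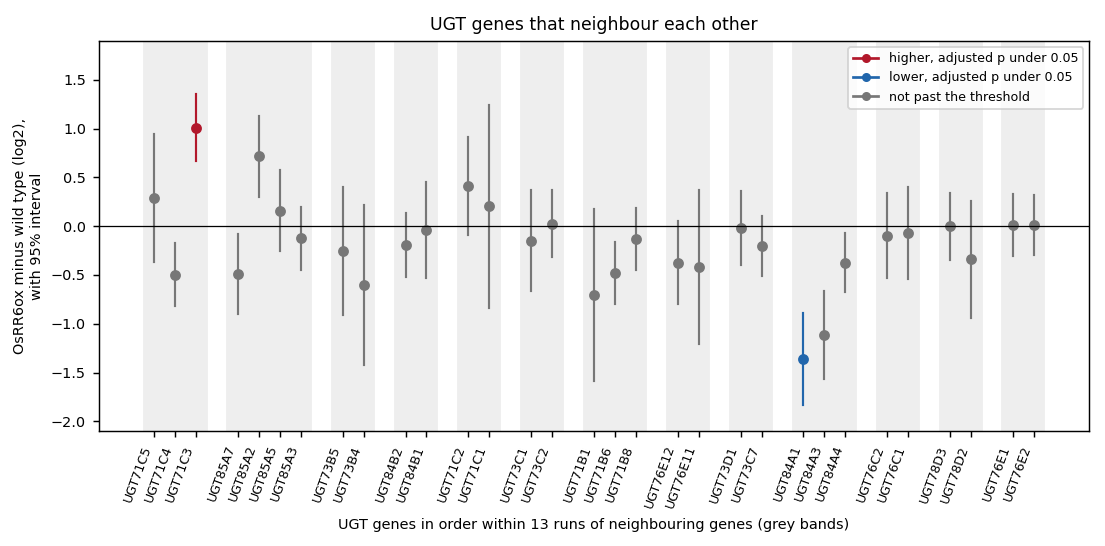
Difference between OsRR6ox and wild type (log2, vertical axis) for the 31 UGT genes that lie in 13 runs of neighbouring genes, drawn as grey bands in gene order. Lines are 95% intervals of the limma fit and colour marks genes past the threshold. UGT71C3 and UGT71C4 stand at 1.01 and -0.50 in the same run, and the UGT84A run lies below 0.

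By known acceptor, the members fall into small sets. Of 6 enzymes of hydroxycinnamates and monolignols 1 fell, 4 had a lower mean and 5 did not overlap between genotypes, with a median difference of -0.57. Over all probe sets 0.488% fell, 57.7% had a lower mean and 46.1% did not overlap. The 4 lower are the neighbours UGT84A1, UGT84A3 and UGT84A4, and UGT72E3. Each had both OsRR6ox arrays lower, as did 28% of all probe sets. UGT72E1, which also did not overlap, and UGT72E2 had higher means in OsRR6ox, by 0.26 and 0.12. Median differences were -0.10 for the 3 cytokinin enzymes, -0.13 for the 3 of abscisic acid, 0.05 for the 3 of salicylic acid and its methyl ester, 0.00 for the 3 of flavonoids and 0.04 for the 2 of auxin, against -0.04 for all probe sets. The abscisic acid and flavonoid medians are the values of UGT71B8 and UGT78D3, which lay at background on all arrays. The cytokinin and auxin sets also hold such a gene, UGT73C1 and UGT84B1, so these medians rest in part on background signal. Among all the acceptor sets UGT71C3 was the only call that rose.

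Other genes of the same pathways were looked up by name, and few names matched a probe set with 1 gene. Matches were 3 of 28 flavonoid names, 3 of 34 glucosinolate names, 3 of 41 cytokinin names and 1 of 25 salicylate names. As 8730 probe sets have no gene name here, unmatched genes may be on the array and are not described. No matched gene of these pathway lists passed the threshold (limma). Phenylpropanoid and sinapate genes had 3 members matched of 29 names. CCR2, a cinnamoyl-CoA reductase, read 4.98 and 4.87 in OsRR6ox and 5.69 and 5.64 in wild type, and its difference of -0.74 missed the threshold (adjusted p = 0.0771). HCT, an acyltransferase of the same pathway, differed by -0.17 and overlapped. Of 3 flavonoid genes, CHI, the chalcone isomerase, read 7.79 and 8.21 in OsRR6ox and 9.46 and 8.20 in wild type, so its difference of -0.83 comes from wild type replicate 1, and DFR differed by -0.31. Of 3 glucosinolate genes, BCAT4, of methionine chain elongation, and GSTU20 differed by 0.38 and 0.49. The methyl salicylate synthase gene BSMT1, at background on all arrays, differed by -0.58. Counts at an unadjusted p under 0.05 were 1 each for the phenylpropanoid and salicylate lists and 0 for the flavonoid and glucosinolate lists.

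Beta-glucosidases, which remove sugars from such conjugates, had 22 genes measured, of which 12 had a lower mean in OsRR6ox and 4 an unadjusted p under 0.05, against 57.7% and 15% of all probe sets. On all 4 arrays 10 of the 22 lay at array background, as did 21.8% of all probe sets. BGLU45 and BGLU42 differed by 0.54 and 0.37, with adjusted p of 0.163 and 0.259. BGLU46, chosen after its value was seen because BGLU45 and BGLU46 both act on monolignol glucosides, differed by -0.44. Of 3 cytokinin genes, the type-A regulators RR16 and ARR15 differed by -0.39 and -0.15. ARR15 lay at array background on both OsRR6ox arrays and on 1 wild type array. Of 4 auxin conjugation genes, GH3.1, at background on all arrays, and WES1 differed by -0.14 and 0.30. None had an unadjusted p under 0.05, as among the cytokinin genes. In the flowering list, AGL24 and FD differed by 0.41 and -0.14, FD at background on all arrays, and 1 of 4 had an unadjusted p under 0.05. FLC, through which UGT87A2 is known to act, was not analysed here. BGLU33, of the abscisic acid list, differed by 0.31, and USP, of nucleotide sugar supply, by 0.02.

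Further UGT genes were measured outside the naming rule. SGT, GT72B1, UF3GT and AT5G54010 carry the synonyms UGT80A2, UGT72B1, UGT79B1 and UGT79B6 in the reference table, and differed by 0.13, -0.31, -0.21 and 0.02, with overlapping arrays in all 4. Probe sets shared by several genes were those of UGT73B2 with UGT73B3, of UGT89B1 with AT1G73885, and of UGT71D1 with AT2G29710. They differed by -0.54, 0.06 and -0.22, and 0 of the 3 passed (0 at an unadjusted p under 0.05, limma).

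Scaling of the arrays moves all these differences together. Centring on 42 spike-in controls, which averaged 8.45 and 8.43 on the OsRR6ox arrays and 8.80 and 9.13 on the wild type arrays, gave a median difference of 0.49 over all probe sets and of 0.49 over the UGT genes. It adds the same amount to every difference, so contrasts between members stay as they were, while the sign of a small negative difference turns. UGT84A1 and UGT87A2 stood at -0.83 and -0.81, UGT84A3 at -0.59 and UGT71C3 at 1.54. UGT71C4, UGT85A7 and UGT84A4 stood just above 0, at 0.03, 0.04 and 0.15. The sign of a member's difference is thus relative to the scaling of the arrays.

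**Figure D4:**
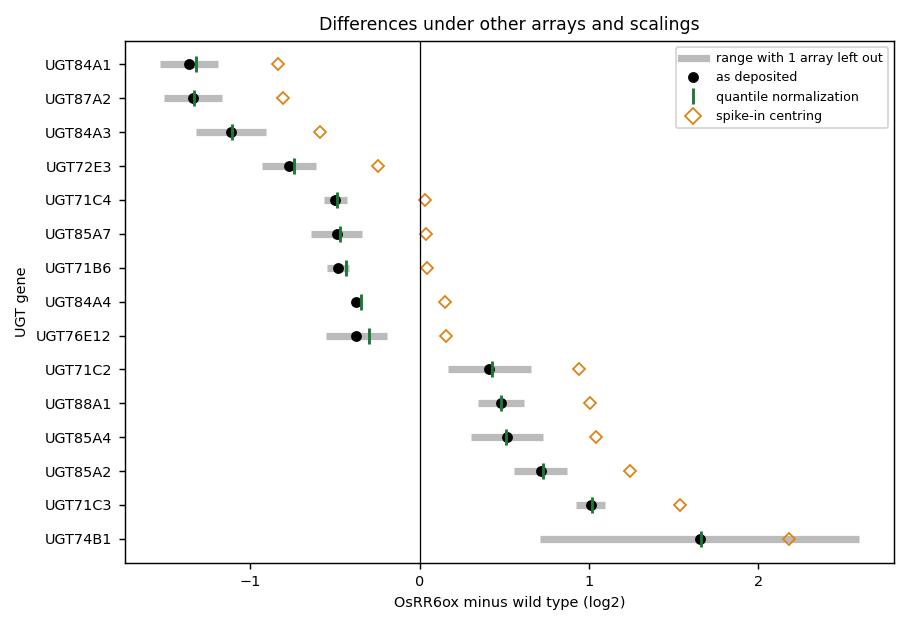
Difference between OsRR6ox and wild type (log2, horizontal axis) for the 15 UGT genes with the smallest p. Dots are the deposited values, grey bars the range when 1 array is left out, ticks quantile normalization and diamonds centring on spike-in controls. The diamonds lie about 0.5 to the right of the dots, and the widest bar is that of UGT74B1, at 0.71 to 2.60.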

How the data were processed

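The authors deposited log2 expression values for 22810 probe sets on 4 arrays. Total RNA came from a Trizol extraction and was labelled with biotin by 3′ IVT, per the labels' protocols. The submitters' processing notes name R 3.4.0, with background correction, summarisation and normalization not given in the sources used here. Detection calls were not used.

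Control probe sets (64) stayed out of the tests. Genes were named from the platform annotation (13513 probe sets with 1 gene, 503 with several, 8730 without a name here), and all 47 members matched the TAIR10.1 reference table. Genotypes were compared in R 4.3.3 by the moderated two-sided test of limma 3.58.1, adjusted over 22746 probe sets at 0.05, and checked on simulated data. The number of arrays limits precision, with a median residual SD of 0.145 and 3.17 prior degrees of freedom. The samples are labelled biological replicates, so p-values cover the spread among these samples, which may be in part technical. Members were named by rule if called, among the 12 others with the smallest p or given a fixed role. The remaining members were named after their values were seen, to account for all 47. In other lists they are the calls and the 2 smallest p. Members and lists were chosen with earlier results of these data known.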

Additional observations from a re-analysis of the deposited data

How the results depend on the processing

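The call of 3 UGT genes was the same under quantile normalization, with an intensity trend and robust variances, and without dim probe sets, where 39 members were tested. Median centring added UGT84A3 (4 calls) and gave 492 calls over all probe sets, and including genes named UGT in the reference table left 3 calls among 51. Every member has 1 probe set, so averaging probe sets changed nothing. Spike-in centring gave 10 UGT calls, 8 higher and 2 lower, and 3013 over all probe sets, of which 95% were higher against 62.5% as deposited. It moved every difference by the same amount and the UGT median to 0.49, which by construction turned the sign of small negative differences (UGT71B6, UGT71C4, UGT76E12, UGT84A4 and UGT85A7 at 0.047, 0.030, 0.16, 0.15 and 0.040). The prior degrees of freedom were infinite there, so its calls are not comparable. With 1 array left out, UGT calls ranged from 0 to 2, calls over all probe sets from 45 to 465 and the UGT median from -0.10 to -0.02. With wild type replicate 2 left out, 46.7% of the 465 calls were higher, and the lowest count was without OsRR6ox replicate 2. Replicate numbers are shared between genotypes, but no label says that they pair samples, and deviations of same-numbered arrays correlated at 0.26. With the replicate number as a block, 0 UGT genes (16 at an unadjusted p under 0.05, limma) and 105 probe sets passed. A lone array in a refit is assumed to vary like the other genotype. The number of arrays and background signal limit what these values can show, and the cause of the changes was not tested.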
